A study of Mus musculus with 12 samples.

Results

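Neuropeptide genes were examined in the mouse auditory nerve 3 and 7 days after ouabain injury. The 9 genes named were Gal, Npy, Vip, Adcyap1, Penk, Tac1, Calca, Sst and Cck, and every probe set whose platform symbol was exactly one of these names was taken. This rule used no measured value. It found 10 probe sets for 8 of the 9 genes, among 45037 probe sets and 18193 genes tested. Calca, which encodes calcitonin and CGRP, was matched by no probe set symbol and was not analysed here. Adcyap1 and Tac1 had 2 probe sets each, and the brighter one stood for the gene.

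The study exposed the round window of the right ear of adult CBA/CaJ mice, 8 to 12 weeks old, to ouabain for 60 min. Ouabain, an inhibitor of the sodium pump, was applied at 3 mM in about 10 µl and renewed every 10 min, and the left ear was left unoperated as the control. The auditory nerve within the modiolus, the bony core of the cochlea, was taken at 3 or 7 days, and operated mice with too small a loss of hearing had been excluded by the study. This gave 4 groups, control and ouabain at each day, with 3 arrays a group and 12 in all. Each array held RNA pooled from 2 preparations, and which animals entered which pool was not stated in the sources used here. The p-values below therefore measure the spread between pooled samples. The opposite ear of an operated animal is also the control, so it is not tissue from an untouched mouse.

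Neuropeptides are cut from larger precursor proteins, stored in dense core vesicles and released to act on G-protein-coupled receptors. In the dorsal root ganglion, sensory neurons whose peripheral axon has been cut are known for a switch of peptides, in which Gal, Npy, Vip and Adcyap1 are induced while Tac1 and Calca, the substance P and CGRP genes, fall. The injury here is unlike a cut axon, since the study describes ouabain as a model in which type I spiral ganglion neurons degenerate. In the cochlea, Penk and Calca products are best known from the efferent fibres that descend from the brainstem, and Npy from sympathetic fibres along blood vessels.

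Markers of neurons, glia and other cells were read in the sampled tissue. All 18 genes of a sensory and spiral ganglion neuron list and all 9 measured Schwann cell genes had values above the array median on at least 1 array. So did all 10 macrophage genes and all 8 measured fibroblast and osteoblast genes, so this was not particular to nerve. Of 9 hair cell and supporting cell genes and 13 marrow and blood genes, 2 in each list stayed below the median on all arrays. In ouabain ears 1 of the 9 Schwann cell genes was called higher and 2 lower at 3 days, and 2 higher and 3 lower at 7 days. Of the 18 neuron genes, 16 were called lower at each day, 1 was called higher and 1 did not pass. The median of the neuron list stood below the day's controls on each ouabain array. Its log2 differences were -1.14, -2.69 and -2.66 at 3 days and -2.10, -3.27 and -3.52 at 7 days. In RNA from whole tissue, fewer neurons and less RNA per neuron cannot be told apart. Of 10 genes listed as markers of injured neurons, 7 were called higher at 3 days and 3 did not pass. At 7 days 6 were called higher, 3 did not pass and Stmn4, a stathmin, fell by 0.66 on the log2 scale. Which cells of the tissue these rises came from was not tested. Among those that rose, Atf3, a stress-induced transcription factor, rose by 4.42 (log2) at 3 days and 4.48 at 7 days, and Jun, its AP-1 partner, rose by 1.37 and 1.25. Macrophage genes were called higher in 10 of 10 at 3 days and 9 of 10 at 7 days. Array medians lay between 6.01 and 6.09 on the deposited log2 scale. Control array 1 at 7 days exceeded every other array by more than 1 log2 unit in 68 probe sets and control array 3 at 7 days in 62, against 0 to 27 on the other arrays. Results that rest on control array 1 are given with and without it.

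Because Atf3 and Jun rose on every ouabain array, the promoters of the neuropeptide genes were read for the short sequences that ATF, CREB and AP-1 proteins are known to bind. RefSeq promoter windows (GRCm38.p6) were available for 7 of the 8 measured genes. Penk had no entry. In the 250 bases before the transcription start, TGACG was searched on both strands and was found for 5 of the 7 genes, against 17.8% of all 32851 windows. One window with TGACG per gene is shown, 60 bases around the match nearest to the start, with the match in capitals (on the reverse strand it reads CGTCA):

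Vip: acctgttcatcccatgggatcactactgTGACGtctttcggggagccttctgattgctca
Adcyap1: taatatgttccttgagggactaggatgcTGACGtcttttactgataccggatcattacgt
Sst: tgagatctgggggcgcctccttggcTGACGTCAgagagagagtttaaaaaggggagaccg
Tac1: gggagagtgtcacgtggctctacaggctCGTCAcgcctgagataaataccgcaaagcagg
Cck: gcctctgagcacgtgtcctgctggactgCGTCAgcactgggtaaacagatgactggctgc

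These stretches lie at chr10:5639111-5639170 on the plus strand for Vip, chr17:93198898-93198957 on the plus strand for Adcyap1, chr16:23890858-23890917 on the minus strand for Sst, chr6:7554990-7555049 on the plus strand for Tac1 and chr9:121495710-121495769 on the minus strand for Cck. The capitals begin 79 bases before the start for Vip, 91 for Adcyap1, 48 for Sst, 43 for Tac1 and 47 for Cck. Among the printed genes the full palindrome TGACGTCA, which contains TGACG on both strands, was in the Sst window, and it occurred in 1.55% of all windows. Gal and Npy held no TGACG in this window, and none of the 7 genes held the AP-1 letters TGACTCA, which were present in 4.46% of all windows. Such a match is a stretch of letters and was not measured as a bound site. Of 5 other peptide genes that rose (Gcg, Ucn2, Pmch, Nppb and Grp, described below), 3 had a window. Those of Gcg and Nppb held neither sequence, and the window for Pmch held TGACTCA. The windows of Nmb, Adm and Nucb2, which rose by less, were not read.

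None of the 8 measured neuropeptide genes passed the test at either day. A gene was called when limma gave an adjusted p under 0.05 (Benjamini-Hochberg over all probe sets) and a fold over 1.5. The count was 0 of 8 at 3 days, where 15.6% of all genes were called, and 0 of 8 at 7 days, where 15.8% were called. At an unadjusted limma p under 0.05 the count was also 0 of 8 at both days, against 39.3% and 42.2% of all genes. In that model all 4 groups share 1 spread per probe set, so an outlying array of 1 day also widens the other day's interval. The test named in the study's methods, run on the same values, also called 0. Over the 8 genes the 3-day log2 fold changes had a median of 0.05 and the 7-day ones of -0.06, and the medians of all genes were 0.01 and 0.03. The 7-day minus 3-day difference in response was called for 0 of 8 genes by limma, where 1.24% of all genes were called without a fold limit. Between the 7-day and 3-day controls 0 of 8 were called, against 0.0165% of all genes.

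**Figure D1:**
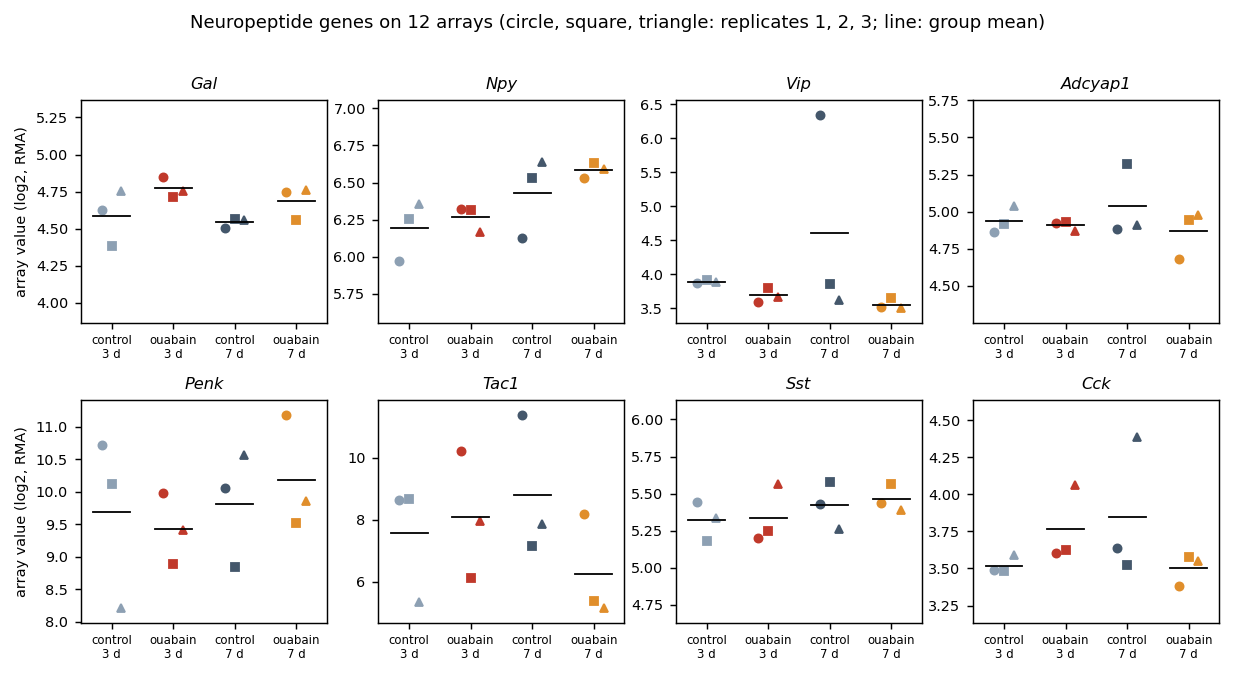
Array values (log2) of the 8 measured neuropeptide genes in control and ouabain ears at 3 and 7 days; each symbol is 1 array, the line is the mean of 3 arrays, and each panel has its own vertical range. Tac1 spans 6.24 log2 units and Penk 2.97 with ouabain and control arrays mixed, while Vip stands high on 1 control array at 7 days.

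The 4 genes known to be induced in cut sensory neurons are described first. Gal encodes galanin, an inhibitory peptide. Its values (log2) were 4.62, 4.38 and 4.76 in 3-day controls and 4.85, 4.71 and 4.76 in 3-day ouabain ears. At 7 days they were 4.51, 4.56 and 4.56 in controls and 4.75, 4.56 and 4.76 in ouabain ears. The groups overlapped at both days and no array reached the array median. Ouabain over control gave a log2 fold change of 0.18 after 3 days (95% interval -0.04 to 0.40, limma adjusted p = 0.247) and of 0.15 after 7 (-0.07 to 0.37, adjusted p = 0.343). As folds, the upper bounds were 1.32 and 1.29.

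Npy encodes neuropeptide Y, a transmitter of sympathetic fibres. It read 5.97, 6.25 and 6.35 in 3-day controls and 6.32, 6.31 and 6.17 in 3-day ouabain ears (log2). At 7 days the values were 6.12, 6.53 and 6.64 in controls and 6.53, 6.63 and 6.59 in ouabain ears. The ranges overlapped at both days, and 11 of the 12 arrays lay above their array median. Its log2 fold changes were 0.08 (-0.22 to 0.37) after 3 days and 0.15 (-0.14 to 0.44) after 7, with limma adjusted p = 0.775 and 0.470. The upper bounds allow rises of 1.29-fold and 1.36-fold. Of 6 measured sympathetic neuron genes, 1 was called higher at 3 days and 0 at 7 days. That gene was Ddc, the decarboxylase that makes dopamine, with a log2 fold change of 1.71 at 3 days, called in 1 of its 2 probe sets.

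Vip encodes vasoactive intestinal peptide. At 3 days it read 3.87, 3.91 and 3.88 in controls and 3.59, 3.80 and 3.67 in ouabain ears (log2). The ouabain arrays all lay below the controls, with a log2 fold change of -0.20 (-1.32 to 0.92, limma adjusted p = 0.857). The 3-day SDs were 0.02 in controls and 0.11 in ouabain ears. The interval is wide because the model shares 1 spread over the 4 groups, including a high 7-day control array. With single arrays left out the 3-day value ran from -0.26 to -0.15, and it did not pass in any of 23 alternative settings. At 7 days the controls read 6.35, 3.85 and 3.62 and the ouabain ears 3.52, 3.64 and 3.497. Control array 1 stood alone, since no other array of any group read above 3.91, and it was the 1 array on which Vip was above the array median. For 7 days this gave a log2 fold change of -1.05 (-2.17 to 0.07, adjusted p = 0.166). Without control array 1 it was -0.18 with limma adjusted p = 0.271. Without control array 3 it was -1.55 and passed the test with limma adjusted p = 0.0426, which was the sole call of a neuropeptide gene in any setting run.

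Adcyap1 encodes PACAP, a relative of Vip that shares receptors with it. Its brighter probe set read 4.86, 4.91 and 5.04 in 3-day controls and 4.92, 4.93 and 4.87 in 3-day ouabain ears (log2). At 7 days the values were 4.88, 5.32 and 4.91 in controls and 4.68, 4.94 and 4.98 in ouabain ears. The groups overlapped at both days, and every value lay below the array median. The 3-day log2 fold change was -0.03 (-0.30 to 0.24, limma adjusted p = 0.914), and the 7-day one was -0.17 (-0.44 to 0.10, adjusted p = 0.362) and -0.0287 without control array 2. The dimmer probe set read 3.22, 3.19 and 3.56 in 3-day controls against 3.16, 2.96 and 2.78 in ouabain ears. These arrays did not overlap, and the log2 fold change was -0.35 (limma adjusted p = 0.0531), which passed neither the p threshold nor the fold limit, and at 7 days it was -0.04 (adjusted p = 0.848). The probe sets thus gave different sizes at 3 days.

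**Figure D2:**
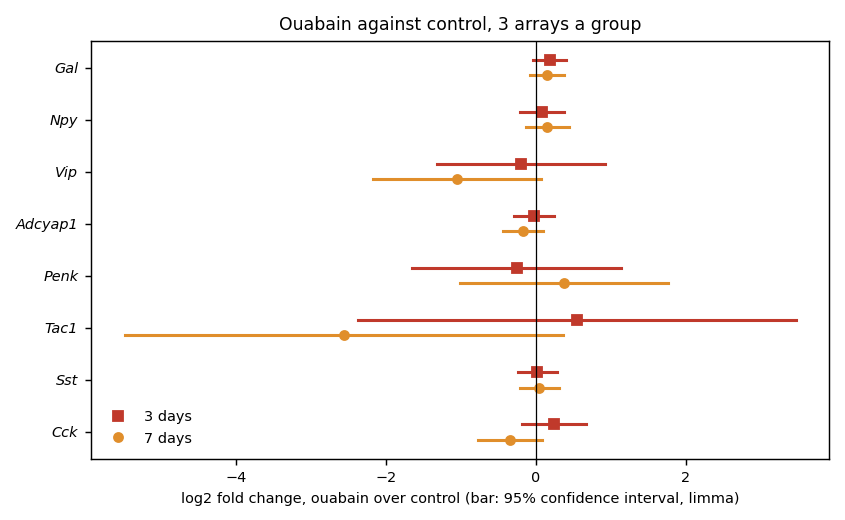
Log2 fold change of ouabain over control for each measured neuropeptide gene at 3 days (squares) and 7 days (circles), 3 arrays a group; bars are 95% confidence intervals from limma. Every interval includes 0, those of Gal, Npy, Adcyap1 and Sst are narrow, and that of Tac1 reaches from -5.48 to 0.36 at 7 days.

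Tac1, the precursor of substance P and neurokinin A, was the most variable of the 8. Its values (log2) at 3 days were 8.65, 8.68 and 5.34 in controls and 10.20, 6.12 and 7.97 in ouabain ears. At 7 days they were 11.39, 7.14 and 7.86 in controls and 8.18, 5.37 and 5.15 in ouabain ears. The groups overlapped at both days, and arrays of a single group differed by more than 3 log2 units in each of the 4 groups. In descending order the group means were 8.80 ± 2.27 in 7-day controls, 8.10 ± 2.04 in 3-day ouabain ears, 7.56 ± 1.92 in 3-day controls and 6.23 ± 1.69 in 7-day ouabain ears (SD, n = 3). No neighbours in that order were further apart than the SD of the more variable of them. The 7-day groups were not neighbours but first and last, 2.56 apart, with SDs of 2.27 and 1.69. Tac1 thus had a log2 fold change of 0.54 (-2.38 to 3.46, limma adjusted p = 0.849) after 3 days and of -2.56 (-5.48 to 0.36, adjusted p = 0.197) after 7. Without control array 1 the 7-day value was -1.27, with limma adjusted p = 0.580. At 7 days each ouabain array lay below the control of its own number, and at 3 days the directions were mixed. No label ties a number to an animal, so these are not known to be pairs. With single arrays left out the 7-day value ran from -3.54 to -1.27. Over 24 alternative settings its lowest limma adjusted p was 0.0598. The second, dim Tac1 probe set stayed between 3.43 and 3.91 on all arrays, with a log2 fold change of -0.13 at 3 days and -0.16 at 7 days.

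Penk, the enkephalin precursor, was bright on all arrays. The 3 measured efferent and cholinergic genes lay below the array median on every array, and 0 of them were called at either day. The cell source of Penk or Npy RNA in this tissue was not tested. Penk read 10.72, 10.12 and 8.21 in 3-day controls and 9.97, 8.89 and 9.41 in 3-day ouabain ears (log2). At 7 days it read 10.05, 8.84 and 10.56 in controls and 11.18, 9.51 and 9.86 in ouabain ears. The groups overlapped at both days. The highest mean was that of 7-day ouabain ears (10.18 ± 0.88), followed by 7-day controls (9.81 ± 0.88), 3-day controls (9.68 ± 1.31) and 3-day ouabain ears (9.42 ± 0.54; SD, n = 3), and no neighbours differed beyond their spread. Ouabain over control gave -0.26 (-1.65 to 1.13, limma adjusted p = 0.849) on the log2 scale after 3 days and 0.37 (-1.02 to 1.76, adjusted p = 0.739) after 7. With single arrays left out, the 3-day value ran from -0.995 to 0.26 and the 7-day value from -0.13 to 0.74, so its direction depended on individual arrays.

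Sst and Cck encode somatostatin and cholecystokinin. Sst ranged from 5.18 to 5.58 (log2) over all 12 arrays, with log2 fold changes of 0.02 (-0.24 to 0.28) at 3 days and 0.04 (-0.22 to 0.30) at 7 days. Cck at 3 days read 3.49, 3.48 and 3.59 in controls and 3.60, 3.62 and 4.07 in ouabain ears. Every ouabain array lay just above the controls there, by a mean of 0.24 log2 units (-0.18 to 0.67, limma adjusted p = 0.461), and by 0.0934 without the highest of them, ouabain array 3. At 7 days Cck read 3.64, 3.52 and 4.39 in controls and 3.38, 3.58 and 3.55 in ouabain ears, with a log2 fold change of -0.35 (-0.77 to 0.08, adjusted p = 0.238). The 7-day groups overlapped, and without control array 3, the highest, the value was -0.0759. Both genes lay below the array median on all 12 arrays. Counted over the 8 genes, ouabain and control arrays did not overlap for 2 genes at 3 days (Vip lower and Cck higher) and for 0 at 7 days, where 43.6% and 46.1% of all genes did not overlap.

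The spread between arrays of a group set Tac1, Penk and Vip apart from the other members. The SD within groups, pooled over the 4 groups, was 1.99 log2 units for Tac1, 0.945 for Penk and 0.759 for Vip, against a median of 0.139 over all genes. These SDs stood at the 99.9th, 99.5th and 99.1st percentiles of the 18193 genes. Cck had an SD of 0.276 and the other members 0.117 to 0.176. In the ouabain groups, the array with the highest Tac1 value was also the one whose neuron list stood nearest to the controls (log2 differences of -1.14 and -2.10). The 3-day controls held Tac1 at 8.65, 8.68 and 5.34, with neuron list medians of -0.04, -0.02 and 0.06 relative to their own mean. In 7-day controls Tac1 read 11.39, 7.14 and 7.86, with neuron list medians of 0.14, -0.06 and -0.12. Penk was highest on the same ouabain arrays as Tac1 (9.97 and 11.18). In the control groups, however, Penk was highest (10.72 and 10.56) on the array with the lowest neuron list median. Marrow and blood genes also varied between arrays of a group: the summed linear level of 13 such genes ran from 4358 to 24192 in 7-day controls, 15302 to 17308 in 3-day controls, 10197 to 21289 in 3-day ouabain ears and 5573 to 11698 in 7-day ouabain ears. The part of neuron or marrow content in the Tac1, Penk and Vip values was not tested.

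Other genes followed these patterns across the 12 arrays. They were sought for Tac1, Penk and Vip after their values were seen, by Pearson's r over all probe sets with 1 symbol, and the arrays share groups and pools, so r is given as a description. Nearest to Tac1 were Crtac1 (r = 0.925), Plcxd2 (0.921) and Ptpn5 (0.917), and without control array 1 at 7 days r was 0.907, 0.876 and 0.870. Crtac1 read 7.59, 7.62 and 6.15 in 3-day controls and 9.48, 6.36 and 7.03 in 7-day controls (log2), with its high and low arrays at the same places as those of Tac1. Nearest to Penk were Slc16a9 (r = 0.960), Slc35g1 (0.955) and Slc4a10 (0.955), 3 members of solute carrier families, with r = 0.950, 0.938 and 0.939 without the highest Penk array. None of these 6 genes was called at either day. Iglv1 (r = 0.963), Redrum (0.947) and Mkrn1 (0.943) were nearest to Vip. Without control array 1 at 7 days those values were 0.050, -0.126 and 0.253, so the likeness to Vip rested on that array.

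**Figure D3:**
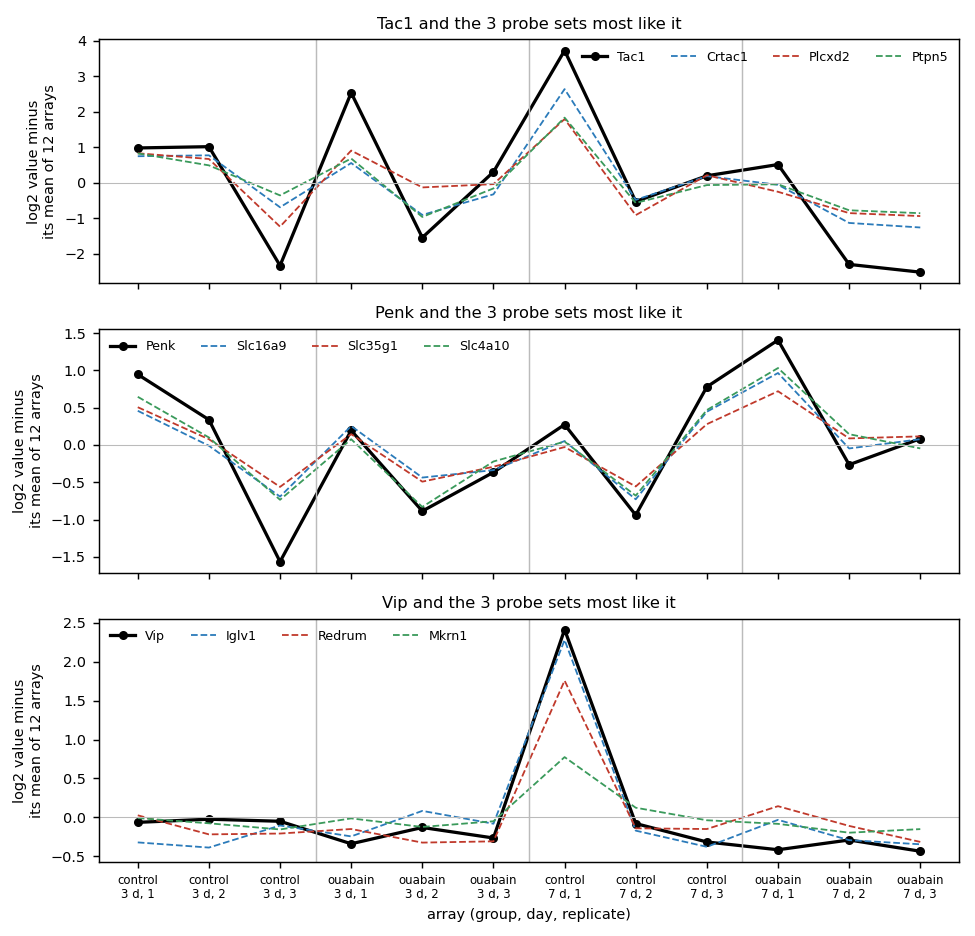
Log2 value minus the gene's own mean over 12 arrays for Tac1, Penk and Vip (thick lines) and the 3 probe sets most like each (dashed), in order of group, day and replicate; vertical lines separate the groups. Tac1 and Penk share most of their rises and dips with these genes within each group, and the likeness to Vip rests on control array 1 at 7 days.

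The genes that make, store, receive and remove peptides were compared through 5 lists with 98 measured genes. Of these, 9 rose and 10 fell at 3 days, and 14 rose and 10 fell at 7 days. The falls lay mostly among dense core vesicle proteins, and the largest rises among other peptide precursors. At 3 days 7.51% of all genes were called higher and 8.06% lower, and at 7 days 7.57% and 8.20%.

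**Figure D4:**
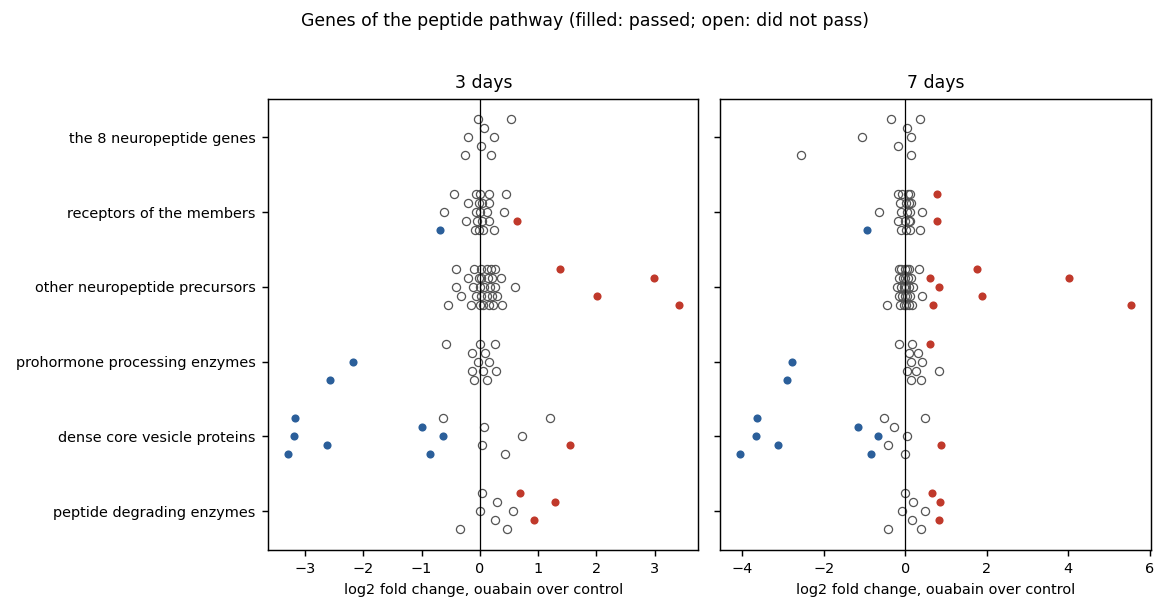
Log2 fold change of ouabain over control at 3 and 7 days for each measured gene of the peptide pathway; filled points passed the test (red higher, blue lower) and open points did not. All 8 neuropeptide genes are open, 4 to 7 other precursors are red, and 7 dense core vesicle genes are blue at each day.

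Of 36 measured precursors of other peptides, 4 rose at 3 days and 7 at 7 days, and 0 fell at either day by limma. Their median log2 fold change was 0.12 after 3 days and 0.04 after 7. Gcg, the proglucagon gene, read 4.41, 4.13 and 4.24 in 3-day controls and 7.34, 7.25 and 7.15 in 3-day ouabain ears (log2). At 7 days it read 3.92, 4.07 and 4.29 in controls and 9.67, 9.17 and 10.05 in ouabain ears. No ouabain array came near a control, and Gcg rose by 2.99 ± 0.18 (log2, SE) after 3 days and by 5.54 ± 0.18 after 7, with limma adjusted p = 5.91e-07 and 7.99e-09. The 7-day response was larger than the 3-day one by 2.55 (adjusted p = 0.000786).

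Ucn2, which encodes the corticotropin-releasing factor relative urocortin 2, read 4.76, 3.85 and 5.11 in 3-day controls and 7.46, 8.08 and 8.43 in ouabain ears (log2). At 7 days its controls read 4.26, 4.603 and 3.85 and its ouabain ears 8.17, 7.85 and 8.73. The groups were far apart at both days, with log2 fold changes of 3.42 ± 0.34 and 4.01 ± 0.34 (SE; limma adjusted p = 1.93e-05 and 5.89e-06). Pmch, the melanin-concentrating hormone precursor, rose by 2.01 ± 0.24 and 1.89 ± 0.24 (adjusted p = 6.72e-05 and 0.000109), and its arrays did not overlap at either day.

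Nppb, which encodes brain natriuretic peptide, rose at 3 days, from 4.65, 4.71 and 5.002 in controls to 6.37, 6.04 and 6.06 in ouabain ears (log2). This was a log2 fold change of 1.37 ± 0.14 (SE, limma adjusted p = 2.22e-05). At 7 days it was 0.34 and did not pass (adjusted p = 0.103). Grp, the gastrin-releasing peptide gene, showed a log2 fold change of 0.61 at 3 days that did not pass (adjusted p = 0.0843) and rose by 1.76 ± 0.23 at 7 days (adjusted p = 0.000146). The 7-day values of Grp were 5.11, 4.51 and 4.76 in controls and 6.75, 6.13 and 6.79 in ouabain ears. Its responses at 3 and 7 days did not differ past the threshold (limma adjusted p = 0.141). The remaining genes that rose at 7 days were Nmb (neuromedin B, 0.84), Adm (adrenomedullin, 0.68) and Nucb2 (the nesfatin precursor, 0.60), all by less than 1 log2 unit. Adm fell under the fold limit without control array 2 (0.50) or ouabain array 1 (0.56), and Nucb2 without control array 1 (0.54) or ouabain array 3 (0.57). Nppb, Grp, Nmb, Adm, Nucb2 and, below, Syt4, Cadps, Scg3, Ptprn, Ptprn2, Bdnf, Vgf and Jun were named after their values were seen.

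**Figure D5:**
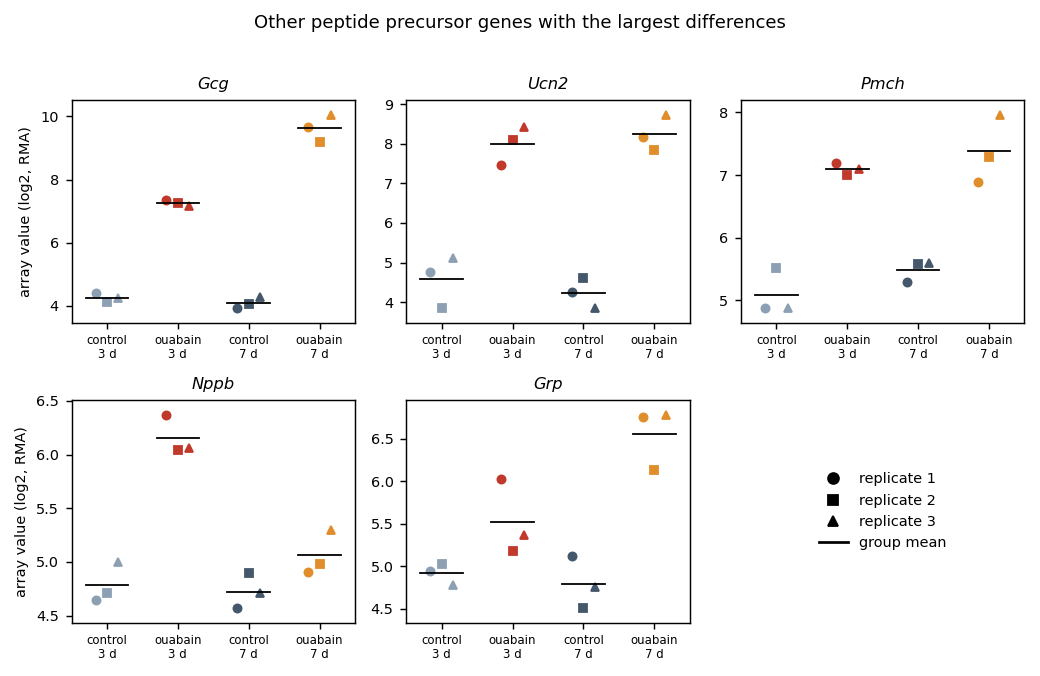
Array values (log2) of Gcg, Ucn2, Pmch, Nppb and Grp in the 4 groups; each symbol is 1 array, the line is the mean of 3 arrays, and each panel has its own vertical range. Gcg, Ucn2 and Pmch stand above the controls on all ouabain arrays at both days, Nppb is farthest from its controls at 3 days and Grp at 7 days.

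Among 24 measured receptors and receptor partners of the 9 peptides, 1 rose and 1 fell at 3 days, and 2 rose and 1 fell at 7 days. Over all genes 15.6% were called either way at 3 days and 15.8% at 7 days. Adcyap1r1, the PACAP receptor, read 7.30, 7.19 and 6.62 in 3-day controls and 7.70, 7.52 and 7.79 in ouabain ears (log2). It rose by 0.63 ± 0.18 (SE, limma adjusted p = 0.0252) at 3 days and by 0.77 ± 0.18 (adjusted p = 0.00831) at 7 days. It was called in 1 of its 3 probe sets, and the mean over the 3 fell short of the fold limit at 0.29 and 0.33. Its 3-day call was lost without control array 3 (0.43) or without ouabain array 1 (0.62) or 3 (0.57). Cckar, a cholecystokinin receptor, fell by 0.68 ± 0.19 on the log2 scale at 3 days and by 0.93 ± 0.19 at 7 days (adjusted p = 0.0228 and 0.00355). Its 3-day call was lost without control array 1 or 2 or without ouabain array 2 or 3, with log2 fold changes of -0.67, -0.52, -0.56 and -0.62. Ramp1, the partner protein that makes a CGRP receptor, rose by 0.78 ± 0.14 at 7 days (adjusted p = 0.00123), in 1 of its 3 probe sets.

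Genes of prohormone processing moved in a few places. Of 14 measured, 2 fell at both days and 1 rose at 7 days, where 15.6% and 15.8% of all genes were called at 3 and 7 days. Scg5, the chaperone 7B2 of a prohormone convertase, read 12.12, 12.11 and 12.05 in 3-day controls and 10.55, 8.81 and 9.21 in ouabain ears (log2). It fell by 2.57 ± 0.40 on the log2 scale at 3 days and by 2.91 ± 0.40 at 7 days (SE; limma adjusted p = 0.000468 and 0.000191). Pcsk1n, which encodes the convertase inhibitor proSAAS, fell by 2.18 ± 0.33 and 2.77 ± 0.33 (adjusted p = 0.000389 and 6.64e-05). Arrays of both genes did not overlap with their controls at either day. Qpct, a glutaminyl cyclase that caps peptides, rose by 0.60 at 7 days (adjusted p = 0.00393), and this fell under the fold limit without control array 1 (0.48) or ouabain array 3 (0.57).

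Dense core vesicle genes held most of the falls. Of 14 measured, 7 fell and 1 rose at each day, and the list's log2 fold changes had a median of -0.63 after 3 days and -0.59 after 7. Chga, a granin stored beside peptides, read 9.70, 9.86 and 9.98 in 3-day controls and 7.34, 6.32 and 6.32 in ouabain ears (log2). At 7 days it read 10.00, 10.01 and 9.75 in controls and 6.92, 5.17 and 5.499 in ouabain ears. The groups stood far apart, with falls of 3.19 ± 0.38 and 4.06 ± 0.38 (SE). Chgb, a second granin, fell by 3.30 ± 0.32 and 3.63 ± 0.32, and Syt7, a calcium sensor of release, fell by 3.17 ± 0.35 and 3.65 ± 0.35, with limma adjusted p between 8.07e-06 and 6.87e-05 for these 3 genes. Cadps, a vesicle priming factor, fell by 2.62 and 3.12. Ptprn and Ptprn2, membrane proteins of the vesicle, had log2 fold changes of -0.63 and -0.9998 at 3 days and -0.67 and -0.84 at 7 days and were called lower each time. The 3-day call of Ptprn was lost without control array 2 or 3 (-0.62 and -0.61) or ouabain array 2 or 3 (-0.47 and -0.57), and its 7-day call without control array 1 (-0.51). Scg3, a granin-binding protein, fell by 0.86 at 3 days. On the same arrays the neuron list stood below the controls as given above, and its part in these falls was not tested.

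Syt4, a synaptotagmin of dense core vesicles, changed direction between the days. It read 10.24, 10.37 and 10.40 in 3-day controls and 11.71, 11.85 and 12.06 in ouabain ears (log2), a rise of 1.54 ± 0.12 (SE, limma adjusted p = 4.15e-06). At 7 days it read 10.58, 10.30 and 10.50 in controls and 9.52, 9.12 and 9.24 in ouabain ears, and it fell by 1.17 ± 0.12 on the log2 scale (adjusted p = 2.91e-05). The groups did not overlap at either day, both of its probe sets were called each time, and the responses differed by -2.71 (adjusted p = 2.96e-05). Bdnf, a neurotrophin carried in such vesicles, rose by 0.88 at 7 days (adjusted p = 0.0431), and the call was lost in 13 of 24 other settings, 8 of which left out a single array. Vgf, a granin-like peptide precursor, had a log2 fold change of 1.197 (-0.07 to 2.46, adjusted p = 0.181) at 3 days and 0.04 (-1.23 to 1.30, adjusted p = 0.974) at 7 days, and its 7-day controls alone ran from 5.93 to 8.33.

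Of 10 measured peptide-degrading enzymes, 3 rose and 0 fell at each day by limma, counted on the brightest probe set of each gene. Anpep, aminopeptidase N, rose by 1.29 ± 0.17 (SE) at 3 days and 0.85 ± 0.17 at 7 days (limma adjusted p = 0.000136 and 0.00291). Its values went from 6.09, 6.25 and 6.45 to 7.30, 7.62 and 7.75 at 3 days (log2), without overlap. Nln, neurolysin, rose by 0.69 at 3 days (0.51, under the fold limit, without ouabain array 3), and Ece1, an endothelin-converting enzyme that also cleaves neuropeptides, by 0.82 at 7 days. Dpp4, which inactivates the glucagon-like peptide made from Gcg, rose by 0.66 at 7 days (adjusted p = 0.0141), in 1 of its 4 probe sets, and this call was lost without control array 1 (0.47) or ouabain array 2 (0.54). Ece2 rose by 0.92 at 3 days in its brighter probe set, and its other probe set was called lower at 3 and at 7 days. Averaged over its probe sets, the 3-day value of Ece2 was 0.08 (limma adjusted p = 0.639), so its direction is uncertain.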

How the data were processed

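RNA from auditory nerve was hybridised to Affymetrix mouse expression arrays. The deposited values are log2 intensities that the authors made with RMA in Affymetrix Expression Console, with quantile normalization. Per the labels MAS5 was also run. RMA compresses dim signals, so fold changes of Gal, Vip, Adcyap1, Sst, Cck and Cckar, and of genes with dim controls (Gcg, Ucn2, Pmch, Nppb and Grp), may be understated. Arrays hold no counts, and their number limits the precision.

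Of 45101 probe sets, 64 controls were left out. A platform table gave 34945 probe sets 1 symbol, 932 several and 9160 none. Of the single symbols, 34741 were matched to RefSeq through the gene identifier and took the RefSeq symbol, whether or not it differed. The brightest probe set stood for a gene. All 12 arrays entered 1 limma model (limma 3.58.1, R 4.3.3) with the 4 groups and no filter, and p-values were adjusted over all probe sets. The study's methods used a t-test with a 1.5-fold limit, run here as an alternative. The fitting script was tested on simulated data. Figures used matplotlib under Python.

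The genes, lists and tests were chosen with earlier results of these data known. All 8 measured members are named, and of each other list up to 3 called genes per day by size of change. Alternatives covered the fold limit, normalization, filters, moderation, weights, probe set averaging, a replicate block and leaving out each array.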

Additional observations from a re-analysis of the deposited data

Results flagged for a closer look

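Responses at 3 and 7 days differed by a limma test of the difference itself for Gcg (2.55, adjusted p = 0.000786), Syt4 (-2.71, adjusted p = 2.96e-05), Nppb (-1.03, adjusted p = 0.0352) and Ddc (-1.72, adjusted p = 0.0467), each as the 7-day minus the 3-day log2 fold change. The values of Nppb and Ddc passed by little, and the call ended without any 1 of 8 arrays for Nppb and any 1 of 9 for Ddc. The call of Ddc also ended with array weights (adjusted p = 0.0538) and when its probe sets were averaged (-0.88, adjusted p = 0.0573). Ddc controls read 5.81, 5.46 and 4.91 at 3 days and 6.79, 5.99 and 6.14 at 7 days (log2). That shift between controls was 0.91 and did not pass (limma adjusted p = 0.525). Ouabain ears had Ddc means of 7.10 at 3 days and 6.30 at 7 days. The Ddc difference thus includes a shift between untreated ears.

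Cck at 3 days was higher on every ouabain array than the mean of its controls, and at 7 days lower on every ouabain array than that mean, although the 7-day groups overlapped and control array 3 (4.39) raised the mean. The responses differed by -0.59 log2 units, which did not pass (limma adjusted p = 0.406), and by -0.32 without that array.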

How the results depend on the processing

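Over 24 alternative settings, 410 of 429 recomputed values of the neuropeptide genes kept their direction and their side of the threshold. Many settings could not move a log2 fold change, since they altered only the test or left out an array of the other day. Penk at 3 days, for example, stayed at -0.26 whichever 7-day array was left out. Much of that agreement was therefore fixed in advance and does not measure robustness. The count of neuropeptide genes called lower at 7 days ranged from 0 to 1 when single arrays were left out, through Vip. Signs turned for small or variable values: Adcyap1 at 3 days was 0.00871 after scaling to the 75th percentile, Tac1 at 3 days was -0.12 with array weights, and Sst at 3 days was -0.0217 after a second quantile normalization and -0.0261 with array weights. Leaving out single arrays moved log2 fold changes at 3 days from -0.0344 to 0.157 for Npy, -0.0671 to 0.0190 for Adcyap1, -0.995 to 0.261 for Penk, -0.567 to 1.53 for Tac1 and -0.0963 to 0.0859 for Sst. At 7 days the ranges were -0.00125 to 0.256 for Npy, -0.128 to 0.742 for Penk, -0.0415 to 0.119 for Sst and -0.47 to 0.73 for Vgf, and the day difference of Vip ranged from -1.35 to 0.0159. The cause was not tested.

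Of the 98 pathway genes, 5 were called lower at 3 days and 7 higher at 7 days by the methods' t-test after adjustment, and 6 and 4 with a fold over 2. Leaving out single arrays gave 7 to 10 higher and 8 to 13 lower at 3 days, and 10 to 14 higher and 9 to 11 lower at 7 days. With the replicate block, 10 rose and 10 fell at 3 days. The block made Grp at 3 days a call (limma adjusted p = 0.0336) and ended those of Bdnf at 7 days (0.0690) and of the day difference of Nppb (0.0806) and Ddc (0.107). Same-numbered arrays correlated by 0.0189 to 0.334 over 6 pairs, 4 of them over 0.1. No label ties a number to an animal, so the numbers were not taken as pairs. Of 6 control arrays, 6 correlated best with the ouabain array of their own number, and of 6 ouabain arrays 4 did so, which is a hint from the data, not the design. Averaging a gene's probe sets put Ramp1 (0.34), Ece1 (0.53) and Dpp4 (0.45) at 7 days and Ptprn2 at 3 days (-0.54) under the fold limit. Requiring a log2 value over 6 on 3 arrays kept 3 of the 8 neuropeptide genes, which limits what the dim ones can show.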
